A study of Mus musculus with 6 samples.

Results

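The transcripts described here are those of 10 mouse genes that encode parts of the mTOR complexes, their direct regulators or their direct substrates: Mtor, Rptor, Akt1s1, Mlst8, Rictor, Tsc1, Tsc2, Rheb, Rps6kb1 and Eif4ebp1. They were chosen by gene symbol, and every array probe that carries one of these symbols was kept apart, which gave 25 probes of 56605 other than controls. Of all probes, 38977 carried a symbol, and these covered 24342 genes. The spleens came from female NOD mice, an inbred strain that develops autoimmune diabetes spontaneously. The MOTS-c group was injected into the peritoneum every day with 0.5 mg/kg/day of MOTS-c, a peptide whose reading frame lies in mitochondrial DNA, and the vehicle group was given a scrambled version of the peptide. Mice of both groups entered the study at 6 weeks of age and were sampled at 18 weeks after a fast of 16 to 18 h. Each group had 3 samples, each read on its own 1-colour array, named here MOTS-c 1 to 3 and vehicle 1 to 3. Whether each sample is a mouse of its own is not stated in the labels, and the p-values below therefore cover the spread among these 6 samples alone, which may be technical.

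mTOR is a protein kinase that sits in a pair of complexes. In mTORC1 it is bound to raptor, and in mTORC2 to rictor. mTORC1 is switched on at the lysosome by the small GTPase Rheb when amino acids are present, and the TSC1-TSC2 complex keeps Rheb in its inactive form until growth factor signals through PI3K and AKT relieve it. Active mTORC1 phosphorylates S6 kinase and 4E-BP1, which raises protein synthesis, and in lymphocytes the pathway couples activation to growth and division. Most of this control acts on proteins and their phosphorylation, which these arrays do not measure.

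The 2 Mtor probes lie far apart in the gene and gave different results, so the sequences that set them apart are shown first. Probe A_51_P282179 was designed on the RefSeq mRNA and lies at chr4:147931250-147931309 on the plus strand of mm9, the mouse build of the array design. Probe A_52_P67643 was designed on the Ensembl transcript ENSMUST00000123566 and lies 102234 bases upstream, at chr4:147829016-147829075 on the same strand. The capitals mark AATAAA, the canonical polyadenylation hexamer, searched on the probe strand alone; 11% of the 31692 probes of the authors' deposited table hold it, and 7 of the 25 probes described here. The first 30 bases of the 60-base probe A_51_P282179 are given, and all 60 of A_52_P67643.
Mtor A_51_P282179: ctgagaaatacgggttttgacttaacttac
Mtor A_52_P67643: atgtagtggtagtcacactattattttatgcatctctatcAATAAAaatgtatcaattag

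The sole Eif4ebp1 probe, A_51_P330428, lies at chr8:28385887-28385946 on the plus strand of mm9. It is shown, by its first 30 bases, because it gave the lowest p among the probes that were designed on a RefSeq mRNA.
Eif4ebp1 A_51_P330428: cagcctccggagcacacccatctttcctta

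A further set is shown because it bears on which transcript a probe reads. Rheb A_66_P123117 covers 3302 bases of the minus strand at chr5:24309516-24312817 with 60 bases of probe, and Rps6kb1 A_52_P170486 covers 1245 bases at chr11:86346290-86347534, also on the minus strand, so each spans a gap on the genome. Rheb A_55_P2720005, at chr5:24316120-24316179 on the minus strand, was designed on the Ensembl transcript ENSMUST00000154523. Its capitals mark a stretch of 16 bases, from base 29 to base 44 of the probe. That stretch also occurs in 6 of 32851 RefSeq promoter sequences of build GRCm38.p6. The rest of the genome was not searched, so its copies there were not counted. With any of its 16-base stretches counted, this probe shared one with 10 other probes of the array and with 16 of those promoters.
Rheb A_66_P123117: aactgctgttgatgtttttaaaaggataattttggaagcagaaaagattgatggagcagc
Rheb A_55_P2720005: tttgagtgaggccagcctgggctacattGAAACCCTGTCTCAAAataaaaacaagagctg
Rps6kb1 A_52_P170486: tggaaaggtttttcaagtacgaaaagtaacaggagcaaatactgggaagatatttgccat

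Between 61.8% and 64.0% of their spots other than controls were well above background, and 0 were saturated. The 75th percentile of the processed signal was 900, 883 and 913 on MOTS-c 1, 2 and 3, against 671, 831 and 841 on vehicle 1, 2 and 3, so every MOTS-c array was brighter than every vehicle array and vehicle 1 was the dimmest. Arrays carry no count of molecules, and the 3 arrays of a group limit the precision. Levels below are log2 of the signal relative to that percentile of the same array, and a level is comparable between arrays of 1 probe, not between probes. Vehicle 1 and vehicle 2 were hybridised on one slide, and vehicle 3 and MOTS-c 1 to 3 on another. The median absolute deviation of a probe from its group mean was 0.099 to 0.11 on the MOTS-c arrays and 0.16 to 0.21 on the vehicle arrays, on the log2 scale, with vehicle 1 the highest.

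Spleen cell markers differed between the groups as well. All 12 erythroid markers were lower on the MOTS-c arrays, with a median difference of -1.24 log2, though the brightest of them, Hba-a1, differed by -0.23; their summed signal was 686 to 752 times the 75th percentile on MOTS-c arrays and 950 to 1400 times on vehicle arrays. All 12 markers of dividing cells were lower too, with a median of -1.16 and summed signals of 173 to 226 on MOTS-c arrays and 337 to 553 on vehicle arrays. All 11 T cell markers tested were higher, with a median of 0.96. Their summed signals were 133 to 148 on MOTS-c arrays against 36.4 to 105 on vehicle arrays. All 12 B cell markers were higher on average, with a median of 0.76 and sums of 187 to 204 against 60.4 to 166. All 11 T cell markers separated the groups, but 6 of the 12 B cell markers did. Vehicle 1 was the lowest array for both lists. All 12 neutrophil markers were higher on average, with a median of 0.98, but no marker separated the groups, and their summed signals were 170 to 588 on MOTS-c arrays and 121 to 444 on vehicle arrays. Markers of pancreatic acinar cells, a tissue that adjoins the spleen, summed to 5.79 to 10.6 on MOTS-c arrays and 8.03 to 156 on vehicle arrays, with vehicle 3 the highest. Whether these markers have a part in the values of the mTOR genes was not tested. In RNA from whole spleen, fewer cells of a type and less RNA per cell cannot be told apart.

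Across the family as a whole, no transcript of the mTOR complexes or their regulators passed the test between MOTS-c and vehicle spleens. All 25 probes were well above background on all 6 arrays. By limma with Benjamini-Hochberg adjustment over the 33734 probes tested, 0 of the 25 passed an adjusted p of 0.05, where 0.00593% of all probes did. At an unadjusted p under 0.05 the count was 2 of 25, or 8.0%, against 25.5% of all probes. Both were lower with MOTS-c, the upstream Mtor probe by 3.93-fold and Eif4ebp1 by 1.89-fold. The groups did not overlap for 5 of the 25 probes, 2 with MOTS-c higher and 3 with MOTS-c lower, while 34.7% of all probes were without overlap. The median difference was -0.09 over the 25 probes and 0.03 over all probes tested. With the brightest probe of each gene, 1 of 10 genes had an unadjusted p under 0.05, where 24.8% of all genes did.

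**Figure D1:**
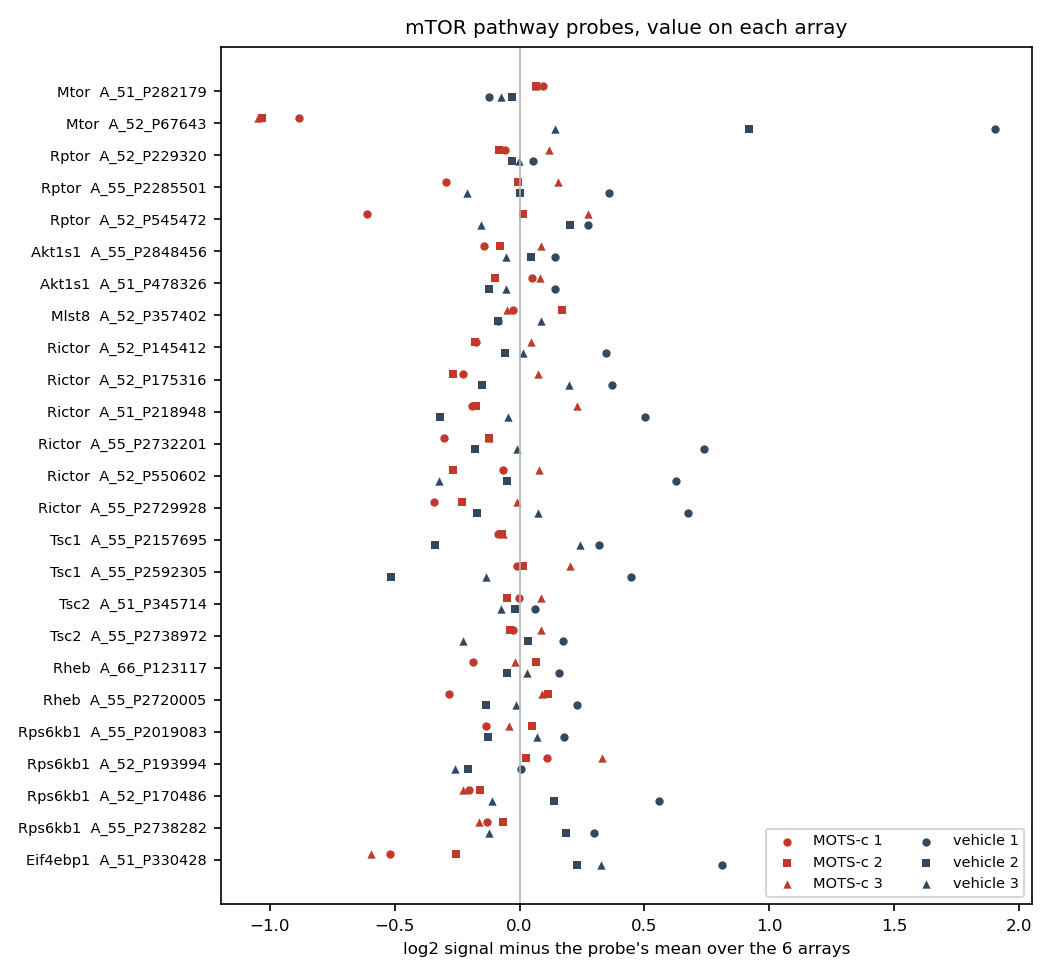
Signal of each of the 25 probes on each array, as log2 signal minus the mean of the probe over the 6 arrays (horizontal axis); red symbols are MOTS-c arrays, dark symbols vehicle arrays, and the symbol shape gives the array number within its group. Vehicle 1 is the highest of the 6 arrays for 20 of the 25 probes, and the groups stand apart for the Mtor pair, Eif4ebp1 and 2 Rps6kb1 probes.

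Mtor, the kinase itself, gave opposite signs with its pair of probes. Probe A_51_P282179, the more 3′ of the pair, read -1.05, -1.08 and -1.08 on MOTS-c 1, 2 and 3, against -1.27, -1.18 and -1.22 on vehicle 1, 2 and 3. Every MOTS-c array was above every vehicle array, and the arrays of a group lay close together, with an SD of 0.016 for MOTS-c and 0.046 for vehicle (n = 3 each). The difference was 0.15 log2 (SE 0.13, 95% interval -0.15 to 0.46), or 1.11-fold, with an adjusted p of 0.472 by limma, which draws the variance of each probe toward that of all probes. In the authors' deposited table the same probe has a fold of 1.09, a p-value of 0.00735 and an adjusted p-value of 0.370. By either analysis the difference did not pass after adjustment.

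The upstream probe A_52_P67643 read -2.34, -2.49 and -2.50 on MOTS-c 1, 2 and 3, against 0.45, -0.54 and -1.31 on vehicle 1, 2 and 3. All MOTS-c arrays were below all vehicle arrays, and the SD was 0.091 for MOTS-c and 0.88 for the widely spread vehicle arrays (n = 3 each). The difference was -1.97 log2 (SE 0.40, 95% interval -2.92 to -1.03), the largest in size of the 25, with an unadjusted p of 0.00156 and an adjusted p of 0.0807 by limma. Without vehicle 1, the highest array, it was -1.52, and within the slide that holds vehicle 3 and the MOTS-c arrays it was -1.13. With a prior variance that follows the signal and resists outlying probes, limma gave this probe an adjusted p of 0.0493. That was the sole setting in which a probe of the 10 genes passed. In that setting 628 of the 33734 probes tested passed, 564 of them lower with MOTS-c, where 2 passed in the main fit. The adjusted p of this probe over its alternatives ranged from 0.0493 to 0.480. The authors' deposited table lists a fold of -4.01 for it, where a minus sign marks lower with MOTS-c, with an adjusted p-value of 0.371.

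Read against each other on each array, the upstream Mtor probe relative to the other was lower with MOTS-c by 2.13 log2. An exact two-sided permutation test of that difference gave p = 0.1, the smallest that 3 arrays against 3 allow, and 0.2 after adjustment over the 4 pairs compared. The pairs were taken because their signs were opposite, so these values describe the pairs and the p carries no independent weight. For Tsc1 the same quantity was 0.28 (exact permutation p = 0.3) and for Akt1s1 0.11 (exact permutation p = 0.6).

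Rptor encodes raptor, the mTORC1 scaffold that recruits substrates. Its brightest probe, A_52_P229320, read 0.50, 0.47 and 0.67 on MOTS-c 1, 2 and 3, against 0.61, 0.52 and 0.55 on vehicle 1, 2 and 3. The groups overlapped, and the difference was -0.014 (95% interval -0.34 to 0.31), with a limma adjusted p of 0.954. The other probes, A_55_P2285501 and A_52_P545472, gave -0.10 and -0.22, with MOTS-c 1 the lowest array for each, and both differences were above 0 within slide 2, at 0.16 and 0.046.

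Akt1s1 encodes PRAS40, an AKT substrate that restrains mTORC1. Probe A_55_P2848456 read 0.32, 0.38 and 0.55 on MOTS-c 1, 2 and 3, against 0.60, 0.51 and 0.41 on vehicle 1, 2 and 3, a difference of -0.090 (95% interval -0.43 to 0.25). The second probe, A_51_P478326, gave 0.023 (95% interval -0.32 to 0.37), and neither separated the groups. Mlst8, a subunit of both complexes, read 1.097, 1.29 and 1.07 on MOTS-c 1, 2 and 3, against 1.04, 1.04 and 1.21 on vehicle 1, 2 and 3. These overlapped as well, and the difference was 0.059 (95% interval -0.28 to 0.40).

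Rictor, the subunit that defines mTORC2, had 6 probes, all of them lower on average with MOTS-c, with differences of -0.39 to -0.091. The brightest, A_55_P2729928, read 0.12, 0.24 and 0.45 on MOTS-c 1, 2 and 3, against 1.14, 0.29 and 0.54 on vehicle 1, 2 and 3. Vehicle 1 stood above the rest here, as it did for all 6 Rictor probes, and MOTS-c 3 overlapped with vehicle 2. The difference was -0.39 (SE 0.24, 95% interval -0.95 to 0.17), with a limma adjusted p of 0.325, and no Rictor probe reached an unadjusted p under 0.05. Without vehicle 1, 4 of the 6 differences were below 0, with a range of -0.16 to 0.14, and within slide 2 also 4 of 6, with a range of -0.34 to 0.24. Probes of the same gene share their RNA and are not replicates of the comparison.

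Tsc1 and Tsc2 encode hamartin and tuberin, and tuberin carries the GTPase-activating domain that turns Rheb off. Tsc2 A_51_P345714 read 2.24, 2.20 and 2.33 on MOTS-c 1, 2 and 3, against 2.31, 2.23 and 2.17 on vehicle 1, 2 and 3. Its difference of 0.020 (95% interval -0.30 to 0.34) was smaller than the SD of either group. A_55_P2738972 gave 0.013 (95% interval -0.36 to 0.38), also smaller than either SD, and -0.019 under quantile normalization. Tsc1 A_55_P2157695 read 1.34, 1.35 and 1.36 on MOTS-c 1, 2 and 3, against 1.74, 1.09 and 1.66 on vehicle 1, 2 and 3. The MOTS-c arrays lay inside the range of the vehicle arrays, and the difference was -0.15 (95% interval -0.62 to 0.32). It was -0.025 without vehicle 1, -0.35 without vehicle 2, -0.064 without vehicle 3 and -0.31 within slide 2. The other Tsc1 probe, A_55_P2592305, gave 0.14 (95% interval -0.45 to 0.72), also with MOTS-c inside the vehicle range.

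Rheb, the GTPase that activates mTORC1, showed no separation with either probe. A_66_P123117, which spans a gap on the genome, read 0.098, 0.35 and 0.27 on MOTS-c 1, 2 and 3, against 0.44, 0.23 and 0.32 on vehicle 1, 2 and 3, a difference of -0.092 (95% interval -0.44 to 0.25). A_55_P2720005, the probe that shares a stretch with other sequences, gave -0.055 (95% interval -0.47 to 0.36). Its sign depended on the scaling, since quantile normalization gave 0.18. This probe was the brighter of the Rheb pair and stood for Rheb wherever the brightest probe of each gene was counted.

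**Figure D2:**
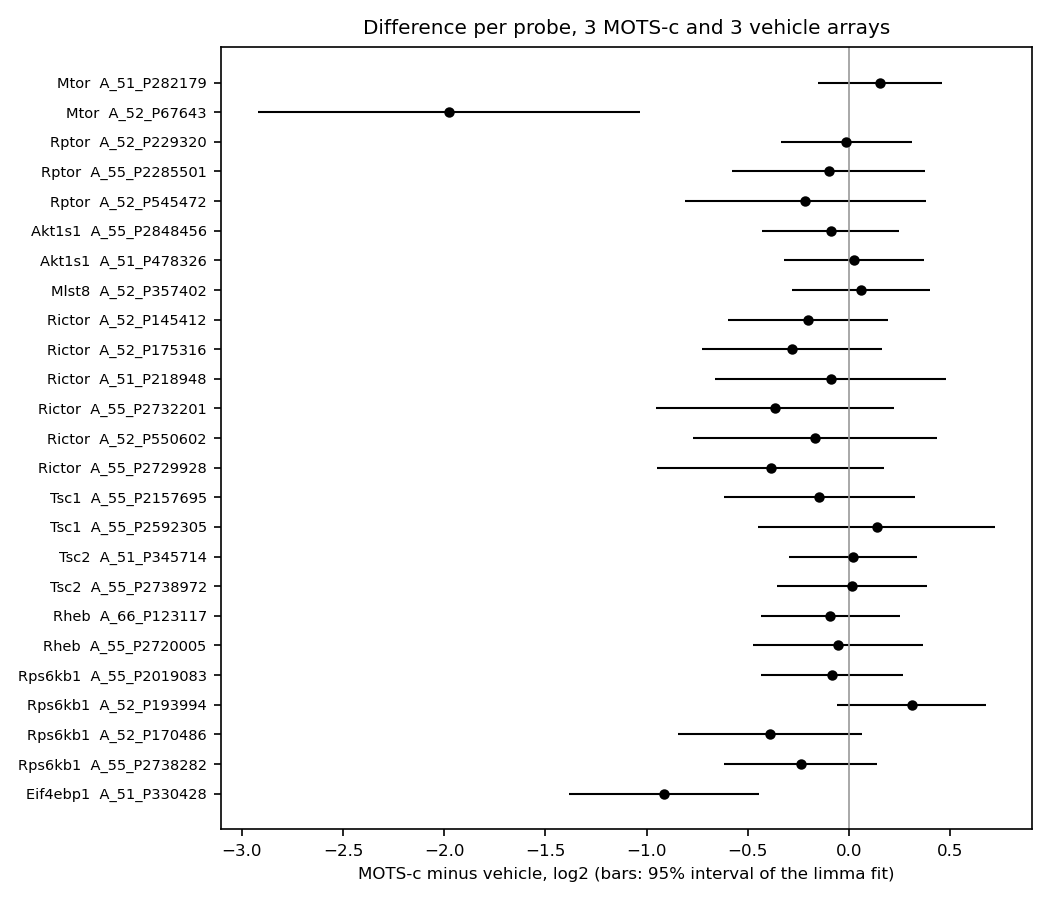
Difference of each probe, MOTS-c minus vehicle on the log2 scale (horizontal axis), with 95% intervals of the limma fit over 3 MOTS-c and 3 vehicle arrays; the vertical line is a difference of 0. The intervals of the upstream Mtor probe (-2.92 to -1.03) and of Eif4ebp1 (-1.39 to -0.44) lie below 0, and the other 23 include 0.

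Rps6kb1 encodes S6 kinase 1, a direct mTORC1 substrate that phosphorylates ribosomal protein S6. Its brightest probe, A_55_P2019083, read 3.93, 4.11 and 4.02 on MOTS-c 1, 2 and 3, against 4.24, 3.94 and 4.13 on vehicle 1, 2 and 3. These overlapped, and the difference was -0.085 (95% interval -0.44 to 0.27), or 0.14 under quantile normalization. A_52_P193994 read -4.38, -4.46 and -4.16 on MOTS-c 1, 2 and 3, against -4.49, -4.70 and -4.75 on vehicle 1, 2 and 3. Every MOTS-c array was above every vehicle array, by a mean of 0.31 (95% interval -0.059 to 0.68, limma adjusted p 0.252). The difference of this dim probe was 0.23 under quantile normalization and 0.14 with normexp.

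The gap-spanning Rps6kb1 probe A_52_P170486 went the other way. It read -2.53, -2.49 and -2.55 on MOTS-c 1, 2 and 3, against -1.77, -2.19 and -2.44 on vehicle 1, 2 and 3. The MOTS-c arrays were below all vehicle arrays, closely followed by vehicle 3, and the difference was -0.39 (95% interval -0.85 to 0.066, limma adjusted p 0.246). Within slide 2 it was -0.083. Without vehicle 3, this probe and the fourth, A_55_P2738282, had unadjusted limma p-values of 0.0234 and 0.0490 at differences of -0.54 and -0.36, and with all arrays the fourth gave -0.24. Without vehicle 1 the same probes gave -0.21 and -0.15, with unadjusted limma p-values of 0.201 and 0.364. The difference of A_52_P193994 relative to the brightest probe was 0.40 (exact two-sided permutation p = 0.1, adjusted 0.2 over the 4 pairs), and 0.091 after quantile normalization of the arrays.

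Eif4ebp1 encodes 4E-BP1, which binds the cap-binding protein eIF4E and blocks translation until mTORC1 phosphorylates it. Its probe read 2.05, 2.31 and 1.97 on MOTS-c 1, 2 and 3, against 3.38, 2.80 and 2.89 on vehicle 1, 2 and 3. All MOTS-c arrays were below all vehicle arrays. The gap between the groups was wider than the range within MOTS-c but narrower than the range within vehicle. The means were 2.11 ± 0.18 for MOTS-c and 3.02 ± 0.31 for vehicle (SD, n = 3 each). The difference was -0.91 log2 (SE 0.20, 95% interval -1.39 to -0.44), with an unadjusted p of 0.00237 and an adjusted p of 0.0814 by limma. The authors' deposited table lists a fold of -1.75 with an adjusted p-value of 0.370.

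Over the 16 alternative settings the Eif4ebp1 difference lay between -1.03 and -0.74 log2, and its adjusted p ranged from 0.0506 to 0.492 by limma. Settings that change the filter, the replicate block, the prior or the probes kept per gene repeat the main difference, so its sign was fixed there. Within slide 2, where vehicle 3 is the sole vehicle array, it was -0.79, the same estimate as with slide as a block. In the settings other than that within-slide fit, the unadjusted limma p was under 0.05. Erythroid and dividing-cell markers were lower on the same arrays. The erythroid list, as the mean over its genes of log2 signal minus each gene's mean, stood at -0.55, -0.44 and -0.71 on MOTS-c 1, 2 and 3, against 0.94, 0.12 and 0.64 on vehicle 1, 2 and 3. The dividing-cell list stood at -0.75, -0.28 and -0.72 on MOTS-c 1, 2 and 3, against 1.00, 0.31 and 0.44 on vehicle 1, 2 and 3. For Eif4ebp1 as for both lists, vehicle 1 was the highest array and MOTS-c 2 the highest of the MOTS-c arrays; the part of these cells in the Eif4ebp1 value was not tested.

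The probes were also set out by their place along the gene. For the probe of each gene that lies most 3′, the 10 differences had a median of -0.088 and ran from -0.91 to 0.15, 7 of them below 0. Of the 15 probes upstream of these, 11 were below 0, a share of 73.3% against 70.0% for the most 3′ probes and 47.3% of all probes tested. For the 10 probes more than 10000 bases upstream of that probe, which belong to Mtor, Rptor, Rictor and Rps6kb1, all 10 differences were below 0, with a median of -0.26 and a range of -1.97 to -0.091. Vehicle 1 was the highest array for all 10. Without vehicle 1, 7 of the 10 were below 0, and within slide 2, 5 of the 10 were. The 9 probes designed on another transcript or clone than a RefSeq mRNA had 8 differences below 0 and a median of -0.24, and the 16 RefSeq-designed probes had 10 below 0 and a median of -0.088. These groupings were made with the values known and describe the probes; where each probe lies in exons, introns or untranslated regions of mm9 was not determined.

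**Figure D3:**
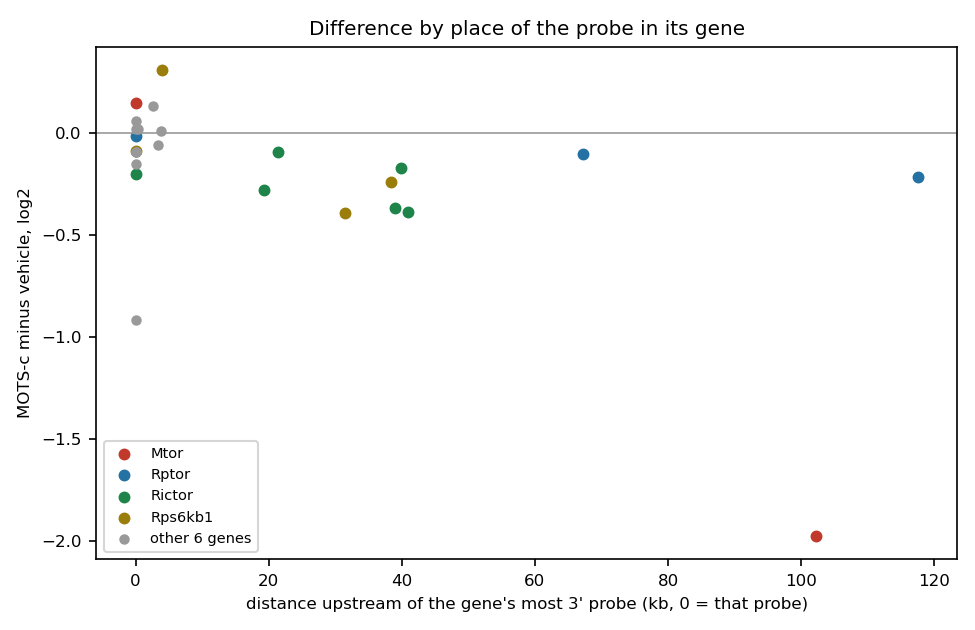
Difference of each of the 25 probes, MOTS-c minus vehicle on the log2 scale (vertical axis), against the distance in kilobases upstream of the most 3′ probe of the same gene (horizontal axis, 0 for that probe); colours mark Mtor, Rptor, Rictor and Rps6kb1, grey the other 6 genes. The 10 probes more than 10000 bases upstream all lie below 0 in the full set of arrays, and 5 of them do within slide 2.

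The named genes whose pattern over the 6 arrays was most like that of the brightest Mtor probe, A_51_P282179, by Pearson correlation among 28157 probes with a symbol, were Col27a1 (r = 0.997), Zbtb37 (0.995), Zfp729a (0.993), Tbc1d1 (0.993) and Jaml (0.993). All 5 were higher with MOTS-c on average, by 0.48 to 0.77 log2, against 0.15 for Mtor. Within the family, Eif4ebp1 ran opposite to that probe (r = -0.972), as did the upstream Mtor probe (r = -0.913). The 6 arrays fall into 2 groups and share their scaling, so these correlations are a description only.

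Around the 10 genes, 74 other genes of the pathway were listed, and 73 of them were tested by their brightest probe. None passed an adjusted p of 0.05 in limma, where 0% of all genes did; 13 of the 73 had an unadjusted p under 0.05, or 17.8%, with 4 higher and 9 lower, against 24.8% of all genes. Their median difference was -0.071, where all genes had 0.038. The groups did not overlap for 24 of the 73, and for 35.5% of all genes. The groups of genes below are described by these counts alone.

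The upstream PI3K and AKT genes included 1 of 15 at an unadjusted p under 0.05, or 6.67%, against 24.8% of all genes. Inpp5d, which encodes the SHIP1 phosphatase that removes the lipid product of PI3K in blood cells, averaged 3.85 ± 0.15 with MOTS-c and 3.21 ± 0.17 with vehicle (SD, n = 3 each). The difference was 0.64 log2, with the arrays not overlapping and a limma adjusted p of 0.0938. Pik3cd and Pik3cg, which encode catalytic subunits of PI3K found in leukocytes, gave 0.36 and 0.29 with adjusted p-values of 0.256 and 0.268 by limma. The Pik3cd arrays overlapped between the groups. Of the 15 genes, 3 were without overlap, where 35.5% of all genes were. T and B cell markers were higher on average on the MOTS-c arrays, with vehicle 1 the lowest array for both lists. The part of the cell mix in the Inpp5d value was not tested. With slide as a block Inpp5d was 0.45, with an unadjusted limma p of 0.0728.

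Among 30 genes of amino acid sensing at the lysosome, 3 were higher and 4 lower at an unadjusted p under 0.05. Together these were 23.3%, against 24.8% of all genes. Fnip2, a partner of folliculin, averaged -0.026 ± 0.061 with MOTS-c and 1.32 ± 0.87 with vehicle (SD, n = 3 each), a difference of -1.35 (limma adjusted p 0.117). Rragd, one of the Rag GTPases that bring mTORC1 to the lysosome, gave -0.81 (limma adjusted p 0.118), and Nprl2, a subunit of the GATOR1 complex that inactivates the Rag GTPases, gave 1.00 (limma adjusted p 0.144). For all 3 genes the arrays of the groups did not overlap, as for 12 of the 30 genes and 35.5% of all genes. Fnip2 and Rragd were lower on the same arrays as the erythroid markers, and this too was not tested. Without vehicle 1, Fnip2 was -0.87 and Rragd -0.54, and Nprl2 was 0.63; within slide 2 Nprl2 was 0.27.

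Of 17 effectors and targets, at an unadjusted p under 0.05 there were 5 lower and 0 higher, where 14% of all genes were lower at that threshold; in both directions together the share was 29.4%, against 24.8% of all genes. With slide as a block, 1 of the 73 pathway genes had an unadjusted limma p under 0.05, as did 3201 of 33734 probes tested. The 3 genes named next were not under 0.05, with limma p-values of 0.0696 for Ulk1, 0.200 for Larp1 and 0.114 for Eif4e. Ulk1, the kinase that starts autophagy and that mTORC1 holds back, averaged 4.08 ± 0.11 with MOTS-c and 5.10 ± 0.53 with vehicle (SD, n = 3 each), a difference of -1.01 (limma adjusted p 0.0987). Larp1, which binds the mRNAs of ribosomal proteins, gave -0.62 (limma adjusted p 0.128), and -0.36 with slide as a block. Eif4e, the cap-binding partner of 4E-BP1, gave -0.46 with its brightest probe (limma adjusted p 0.146) and 0.02 with its other probe. Neither Eif4e nor Eif4ebp1 passed after adjustment.

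Of the 11 further complex subunits and inhibitors, 0 had an unadjusted p under 0.05, where 24.8% of all genes did. The 3 with the smallest p were Telo2 and Tti2, members of a chaperone complex that helps assemble mTOR, at 0.37 and -0.33, and Fkbp1a, the protein that rapamycin binds, at -0.23. Their limma adjusted p-values were 0.255, 0.370 and 0.320. The other probes of these genes gave 0.037 to 0.47 for Telo2, -0.22 to 0.15 for Tti2 and -0.076 for Fkbp1a. Tti2 turned to 0.095 within slide 2. Fkbp1a was -0.00029 with quantile normalization, -0.041 with normexp and -0.0026 with the deposited values.

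**Figure D4:**
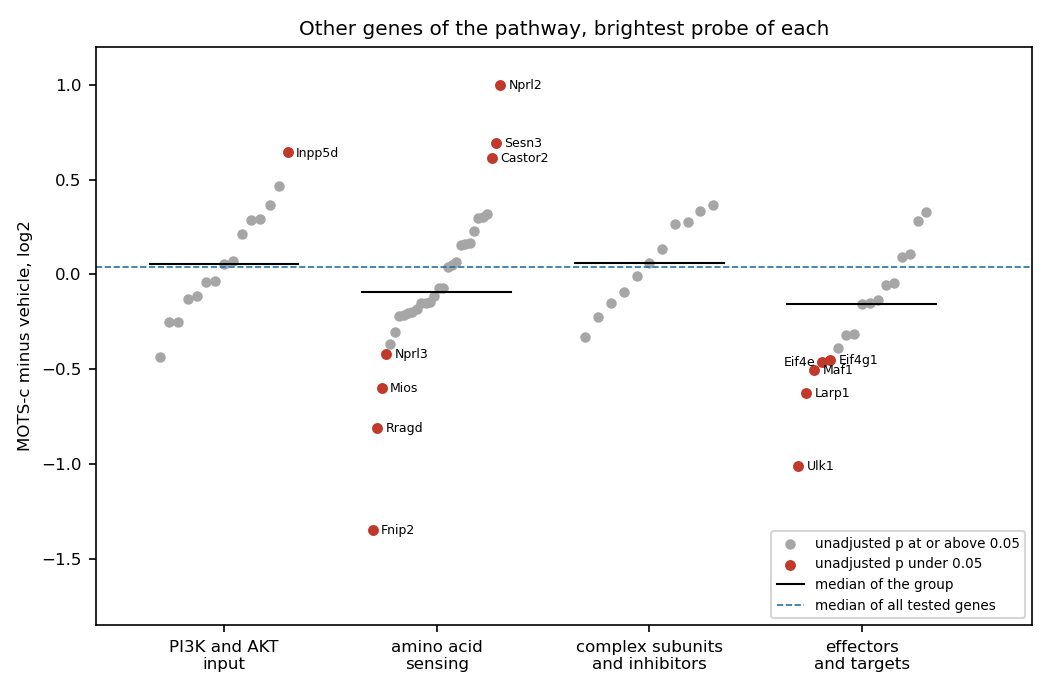
Difference of 73 other pathway genes, MOTS-c minus vehicle on the log2 scale (vertical axis), each by its brightest probe, in 4 groups ordered by size within the group; red points have an unadjusted p under 0.05, black bars are group medians and the dashed line is the median of all genes (0.038). All 5 red points among the effectors lie below 0, and the amino acid sensing genes have 3 above and 4 below.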

How the data were processed

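Spleen RNA in 3 MOTS-c and 3 vehicle samples was hybridised to Agilent arrays of 1 colour. Spot intensities were turned into a background-subtracted processed signal without scaling between arrays, per the file headers; the submitters' processing notes name Agilent Feature Extraction 11.0.1.1. The authors' deposited table holds normalized log2 values of these signals, their signed fold as a score, and a p-value with its adjustment. Its processed signals equalled the scanner files' for 99.6% to 99.7% of 31692 probes (tolerance 0.001). For Rheb A_55_P2720005 its normalized values gave a difference of 0.175 and quantile normalization 0.176, where the main scaling gave -0.055.

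Outlier spots (97 to 145 an array) were left out, spots of a probe were averaged, and log2 of the signal was taken relative to each array's 75th percentile. Tested were probes that every array of the MOTS-c or of the vehicle group had well above background, with limma 3.58.1 in R 4.3.3 (lmFit, eBayes, two-sided), after a check on simulated data. Alternatives changed scaling, background, filter, slide, replicate block, prior and arrays. Groups and numbers follow the titles, from which the description's number departs for MOTS-c 3 and vehicle 3.

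The 10 genes, lists and tests were chosen with earlier results of these data known. Named are all member probes, the 3 genes with the smallest p of each pathway group and the 5 most like Mtor; others named are said to be exceptions. Symbols came from gene IDs, the deposited table and accessions; 17628 probes stayed unnamed. No genome of mm9 was used.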

Additional observations from a re-analysis of the deposited data

How the results depend on the processing

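Of 385 differences of the 25 probes recomputed over 16 alternatives, 40 had the opposite sign and 1 passed an adjusted p of 0.05. The sign of a probe was kept throughout for 11 probes. Both filters, the replicate block, the trended robust prior and the brightest probe per gene repeat the main differences, so no sign could change there. Slide as a block and within slide 2 share their estimates but are counted apart, so the 385 are not independent checks. The upstream Mtor probe ran from -2.40 to -1.13. With slide as a block and within slide 2, alike, values turned to 0.0078 for Akt1s1 A_55_P2848456, -0.054 for Mlst8, 0.0014 and 0.24 for Rictor A_51_P218948 and A_52_P550602, 0.0040 for Rps6kb1 A_55_P2738282, 0.16 and 0.046 for Rptor A_55_P2285501 and A_52_P545472, and 0.095 for Tti2. Quantile, normexp and deposited values turned Rheb A_55_P2720005 to 0.18, 0.21 and 0.18 and Rps6kb1 A_55_P2019083 to 0.14, 0.13 and 0.14; Tsc2 A_55_P2738972 was -0.019 with quantile and -0.022 with deposited values. The Rps6kb1 pair difference was 0.091, 0.013 and 0.11 with quantile, normexp and deposited values. Leaving out 1 array gave -0.032 to 0.10 for Akt1s1 A_51_P478326, -0.011 to 0.12 for Mlst8, -0.14 to 0.073 for Rheb A_55_P2720005, -0.27 to 0.14 and -0.37 to 0.10 for Rictor A_51_P218948 and A_52_P550602, -0.076 to 0.023, -0.23 to 0.055 and -0.41 to 0.035 for Rptor A_52_P229320, A_55_P2285501 and A_52_P545472, -0.087 to 0.39 for Tsc1 A_55_P2592305, and -0.017 to 0.056 and -0.096 to 0.10 for Tsc2 A_51_P345714 and A_55_P2738972. The cause of these changes was not tested.

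Over all probes, 2 passed in limma; 0 passed with normexp, deposited values, a filter on all 6 arrays or no filter, 1 with slide as a block, 4 within slide 2, 628 with a trended robust prior, and 0 to 1033 with 1 array left out (1033 without vehicle 2, 65 without vehicle 3). Of the 25 probes, 1 passed with the trended robust prior and 0 with any array left out. At an unadjusted p under 0.05 the count of 2 became 1 with the brightest probe per gene and 2 to 4 with 1 array left out (4 without vehicle 3). The 13 other pathway genes became 1 with slide as a block and 6 to 19 with 1 array left out. Over all 33734 probes tested, 8600 at that threshold became 3201 with slide as a block and 4998 to 10089 with 1 array left out.

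Deviations from the group mean correlated at -0.17, 0.0064 and -0.090 between same-numbered arrays, and at -0.13 to 0.19 between the others. With 3 arrays a group, these values cannot settle whether the numbers pair the samples. With the replicate block 0 probes passed, 2 of the 25 had an unadjusted p under 0.05, and 8 other pathway genes did. Over all 33734 probes tested, 7189 did. The normexp alternative planned on the mean signal was not run; the files hold the median signal, and its use was chosen after seeing the data. With 3 arrays a group, the 95% intervals set how closely each difference is known, and transcript levels say nothing of phosphorylation.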

Other observations

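Genes of the pathway beyond those above were picked here after their values were seen. In amino acid sensing, Mios, a subunit of the GATOR2 complex that opposes GATOR1, differed by -0.60 log2 between MOTS-c and vehicle. Nprl3, a GATOR1 subunit, differed by -0.42, where its partner Nprl2 stood at 1.00. Nprl2 was 0.54 with normexp and 0.27 with slide as a block. Sesn3, which encodes a sestrin, and Castor2, which encodes a protein of the CASTOR family, stood at 0.69 and 0.61. The adjusted p-values in limma of Mios, Nprl3, Sesn3 and Castor2 were 0.146, 0.161, 0.176 and 0.160. Among effectors, Eif4g1, the scaffold that eIF4E binds and that 4E-BP1 displaces, differed by -0.45 with its brightest probe and by -0.34 to -0.023 with its 3 other probes, and Maf1, a repressor of RNA polymerase III that mTORC1 phosphorylates, by -0.51, with adjusted p-values of 0.181 and 0.184 in limma. On vehicle 3, which shares its slide with the MOTS-c arrays, Mios read 0.24, Sesn3 1.68, Castor2 0.58, Eif4g1 3.265 and Maf1 4.59. Their MOTS-c means were 0.051, 2.10, 0.95, 3.06 and 4.30, and their vehicle means 0.65, 1.40, 0.34, 3.51 and 4.81. For each of them vehicle 3 lay nearer the MOTS-c mean than the vehicle mean did. For Nprl3 it did not, at 1.92 against means of 1.42 with MOTS-c and 1.84 with vehicle.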
